A study of Mus musculus with 51 samples.

Results

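Cullin-RING ligases are ubiquitin ligases built on an elongated cullin protein. The genes described here encode the scaffold of these enzymes. They are the 8 cullins Cul1, Cul2, Cul3, Cul4a, Cul4b, Cul5, Cul7 and Cul9, and the RING partners Rbx1 and Rnf7. They were taken by gene symbol, and all 10 were found among the 40077 genes of the deposited tables.

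A cullin holds the RING partner at its C-terminal end and an adaptor with a substrate receptor at its N-terminal end, so that each cullin serves its own family of receptors. Attachment of NEDD8 to the cullin switches the ligase on, the COP9 signalosome removes it, and Cand1 exchanges the receptors. All of these ligases depend on ubiquitin that has been activated by an E1 enzyme, of which UBA1 is the main form, and TAK-243 is an inhibitor of UBA1.

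Bulk RNA was sequenced in 51 mouse libraries that asked what raising, lowering or inhibiting UBA1 does in tumor cells and tumors. Myc-CaP is a prostate cancer line from mice that carry a Myc transgene, and B16-BL6 is a melanoma line. Cultured Myc-CaP cells were control, treated with 50 nM TAK-243 for 18 h, treated with IFN-γ, or treated with both, with 2 libraries each. In another set, Myc-CaP cells were labelled NC (control) or sgUba1 (Uba1-depletion), with or without IFN-γ, again with 2 libraries each. Myc-CaP tumors carried an empty vector (EV, 3 libraries) or Uba1 overexpression (OE, 4), were labelled sgNC (3) or sgUba1 (7), or came from mice given vehicle (6) or TAK-243 (5) at 25 mg/kg. B16-BL6 tumors were labelled sgNC (3) or sgUba1 (4). The overexpressed Uba1 was a cDNA driven by a CMV promoter in a lentiviral vector with blasticidin selection. The depleted lines were sublines expanded from single sorted cells after CRISPR editing and puromycin selection, and more than 1 guide was used, but the labels do not say which guide a library carried. Per the study's methods, tumors grew under the skin of both flanks of mice aged 6 to 8 weeks. The hosts were male FVB mice for Myc-CaP, female C57BL/6 mice for B16-BL6, or SCID mice, and the labels name no host for single libraries.

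Depth differed between the sets of libraries. The total of estimated counts per library ran from 12860987 to 16793889 in the TAK-243 cell experiment and from 26768564 to 38032395 in the guide cell experiment. Among tumors it ran from 8652097 to 12569942 for EV and OE, from 10668740 to 14168313 for Myc-CaP sgNC and sgUba1, from 26121347 to 35047070 for vehicle and TAK-243, and from 26347998 to 35693203 for B16-BL6. Levels within a comparison are given below as CPM, which are counts scaled to library size within each experiment. Levels of different genes are set side by side in TPM, which are scaled to library size and per length. The labels do not say whether the libraries of a group came from separate cultures or animals, and the study's methods say only that samples were distinct, so the p-values measure the spread between these samples, which may be technical.

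Uba1 itself was read first in every library. In the TAK-243 cell experiment it stood at 452 and 445 CPM in control cells, 594 and 565 with TAK-243, 543 and 561 with IFN-γ, and 643 and 628 with both. By the quasi-likelihood test of edgeR with Benjamini-Hochberg adjustment, Uba1 rose with TAK-243 (log2 fold change 0.37, SE 0.0304, edgeR adjusted p = 5.68e-12, both libraries higher). It also rose with IFN-γ (0.30, SE 0.0304, edgeR adjusted p = 9.92e-09, both higher), although limma on TPM did not call that (0.07, adjusted p = 0.297). In the guide cell experiment it stood at 533 and 526 CPM in NC cells, 585 and 600 in NC cells with IFN-γ, 295 and 283 in sgUba1 cells, and 269 and 275 in sgUba1 cells with IFN-γ. The sgUba1 cells therefore lay below every NC library. The log2 fold change was -0.87 (SE 0.0460, edgeR adjusted p = 3.71e-07, both libraries lower) without IFN-γ and -1.13 (SE 0.0462, edgeR adjusted p = 5.07e-08, both lower) with it.

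In B16-BL6 tumors Uba1 stood at 410, 455 and 414 CPM in sgNC and at 208, 220, 228 and 247 CPM in sgUba1, with a log2 fold change of -0.92 (SE 0.0742, edgeR adjusted p = 0.000294, 4 of 4 lower). In EV tumors it stood at 310, 278 and 292 CPM, and in OE tumors at 731, 631, 722 and 747 CPM, a log2 fold change of 1.27 (SE 0.0886, edgeR adjusted p = 0.00504, 4 of 4 higher). That call was lost without EV replicate 2 (1.24, edgeR adjusted p = 0.116) and without EV replicate 3 (1.27, edgeR adjusted p = 0.110), although the difference itself hardly moved. The Myc-CaP tumors labelled sgUba1 went partly against their label. Against 320, 325 and 337 CPM in sgNC, replicates 1, 2 and 3 stood at 197, 202 and 211 CPM, and replicates 4, 5, 6 and 7 stood at 373, 361, 368 and 383 CPM, above every sgNC library. The group did not pass the test (log2 fold change -0.13, SE 0.244, edgeR adjusted p = 0.787), so these libraries are called tumors labelled sgUba1 throughout. Vehicle tumors ran from 311 to 379 CPM with a median of 352, and TAK-243 tumors stood at 340, 322, 351, 283 and 368 CPM, with overlapping groups. In bulk tissue, fewer cells of a type and less RNA per cell cannot be told apart.

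The labelled cell types were set against marker genes. All 8 melanocyte lineage markers were above 1 TPM in B16-BL6 tumors, with summed levels from 10450 to 12460 TPM and Dct as the most abundant gene. The same list summed to at most 16.3 TPM in any Myc-CaP tumor and 7.98 TPM in any cell library, with Mitf on top and Dct at 0 in most groups. For the Myc-CaP samples, which are labelled epithelial, the epithelial marker Epcam was at 0 in every library of control cells, NC cells, NC cells with IFN-γ and cells with both agents.

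Per length, the scaffold genes spanned a wide range of levels. In control cells of the TAK-243 experiment Rbx1 (112 and 114 TPM) and Cul1 (108 and 115 TPM) led and overlapped. Rnf7 (81.3 and 85.2 TPM), Cul3 (78.9 and 79.0 TPM), Cul4b (54.8 and 57.2 TPM), Cul4a (51.1 and 51.2 TPM), Cul5 (44.6 and 45.4 TPM), Cul2 (25.5 and 26.1 TPM), Cul7 (3.63 and 3.85 TPM) and Cul9 (0.0711 and 0.156 TPM) followed without overlap between neighbours. In NC cells of the guide experiment Cul1 (95.4 to 101 TPM) and Rbx1 (92.4 to 96.2) again led and overlapped. The ranges of Cul3 (78.9 to 91.9 TPM) and Rnf7 (80.5 to 83.3) overlapped there, and Cul5 (48.8 to 54.5) reached the levels of Cul4a (53.8 to 54.5) and Cul4b (52.7 to 53.4), of which Cul4a was now the higher. Cul9 there was at 0.0252 and 0.0354 TPM, from 4 or 5 estimated counts a library.

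Control tumors kept Cul1, Rbx1, Cul3 and Rnf7 at the top of the order in TPM and Cul9 at the bottom, but moved Cul7 and Cul4a. In Myc-CaP sgNC tumors Cul1 (77.4 to 83.2 TPM) overlapped Rbx1 (64.0 to 79.5), which overlapped Cul3 (66.9 to 74.4) and Rnf7 (60.8 to 74.5), and Rnf7 overlapped Cul4a (55.4 to 68.8). Cul4b (32.0 to 39.9 TPM) overlapped Cul5 (28.8 to 33.2), and Cul2 (14.7 to 16.8) overlapped Cul7 (14.5 to 17.4), with Cul9 last at 2 to 3.61 TPM. In B16-BL6 sgNC tumors Cul7 (43.4 to 45.7 TPM) stood above Cul4a (37.3 to 39.6) and Cul4b (36.6 to 38.5), which overlapped, and above Cul5 (34.2 to 35.6), Cul2 (16.9 to 18.7) and Cul9 (0.679 to 0.867). Thus Cul7 was next to last in control and NC cells, while only Cul1, Rbx1, Rnf7 and Cul3 stood above it in B16-BL6 control tumors on the TPM scale.

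**Figure D1:**
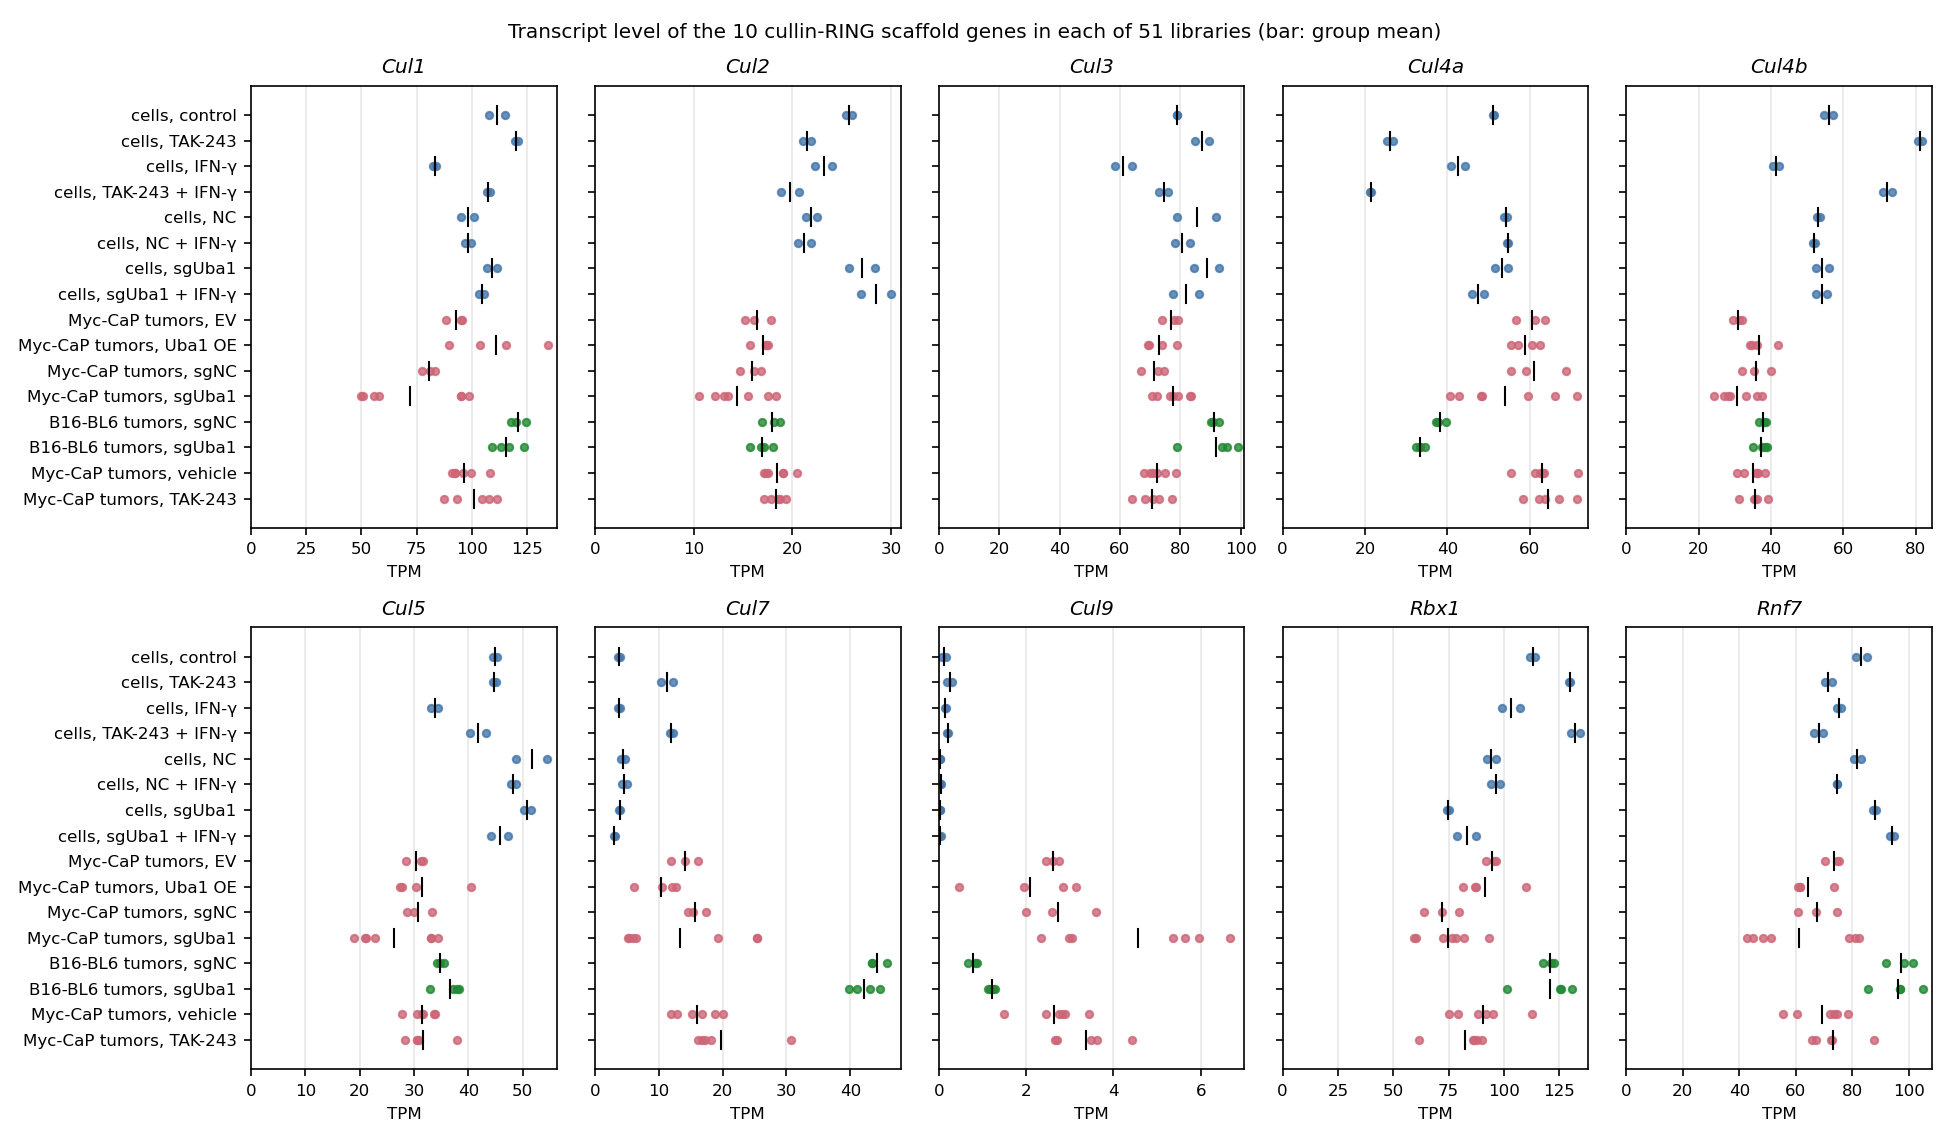
Level of each scaffold gene in TPM (horizontal axes) in each of the 51 libraries by group; points are libraries and bars are group means. Cul7 lies between 3.63 and 3.85 TPM in control cells and between 43.4 and 45.7 TPM in B16-BL6 sgNC tumors, and the tumors labelled sgUba1 spread over 5.20 to 25.4 TPM.

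The summed TPM of the 8 cullins averaged 372 in control cells (SD 3.25, n = 2), 392 with TAK-243 (SD 3.75, n = 2), 289 with IFN-γ (SD 6.08, n = 2) and 349 with both (SD 1.98, n = 2). For IFN-γ against control the median log2 fold change of all genes was -0.155 with limma on TPM and 0.0366 in edgeR, and the part of the scale in the lower sum was not tested. Within that sum the share of Cul4a was 13.6% and 13.8% in control cells and 6.51% and 6.80% with TAK-243, while the share of Cul4b was 14.6% and 15.5% against 20.4% and 20.9%. Cul4a and Cul4b are close paralogs that both bind the adaptor Ddb1, and among the cell libraries their balance set those with TAK-243 apart. The log2 ratio of Cul4a TPM to Cul4b TPM was between -0.16 and -0.10 in control cells, between -1.69 and -1.58 with TAK-243, and between -1.78 and -1.72 with TAK-243 and IFN-γ. It averaged 0.77 in Myc-CaP sgNC tumors (SD 0.0288, n = 3) and 0.02 in B16-BL6 sgNC tumors (SD 0.0430, n = 3). These shares and ratios are descriptions without a test.

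**Figure D2:**
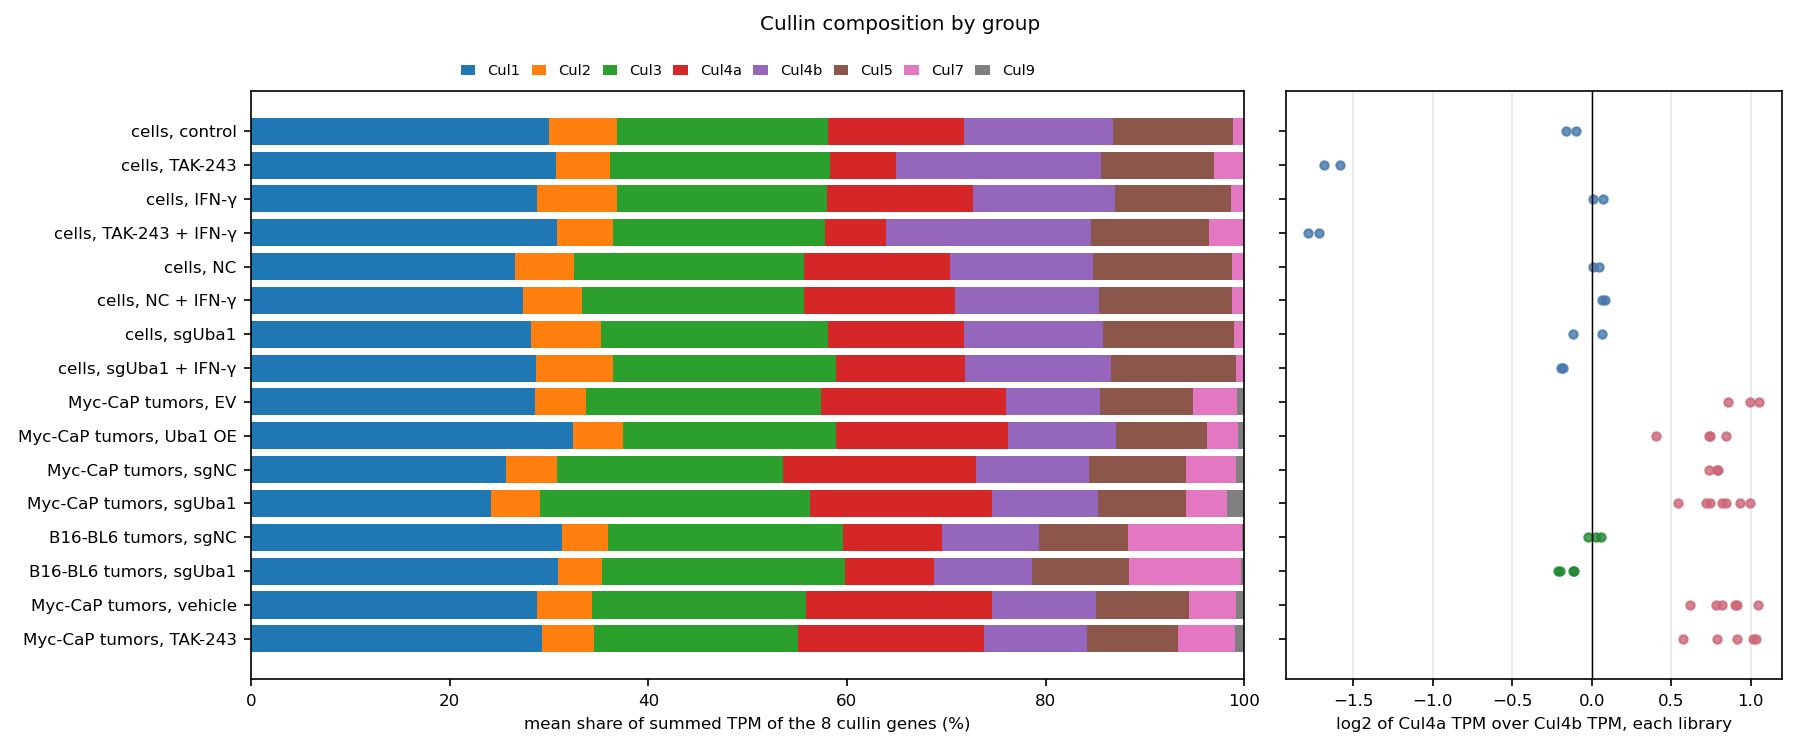
Left, mean share of each cullin (percent, horizontal axis) in the summed TPM of the 8 cullins, by group; right, log2 ratio of Cul4a TPM to Cul4b TPM in each library (points). The Cul4a share averages 13.7% in control cells and 6.66% with TAK-243, and the 4 libraries with TAK-243 are the only cell libraries with a log2 ratio under -1.58.

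Each comparison was fitted across all genes with edgeR, and a gene was called at an adjusted p under 0.05. TAK-243 moved most of the genes tested in cultured cells, and most of the scaffold genes with them. Without IFN-γ 9 of 10 were called, beside 66.3% of all genes tested. Of these, 6 rose (32.3% of all genes were called higher) and 3 fell (34% were called lower). With IFN-γ in both arms 9 of 10 were called, beside 68.2% of all genes, with 6 higher (32%) and 3 lower (36.2%). Without IFN-γ DESeq2 called 7 members (8012 of all genes), limma-voom 9 (9639) and limma on TPM 6. With IFN-γ in both arms DESeq2 called 7 (8322 of all genes), limma-voom 9 (9901) and limma on TPM 9. Counts from these other tools are given here and below without the number of genes each tested. They are therefore not set against a share of all genes, and for limma on TPM no count of all genes is given for these comparisons. The median log2 fold change of the members was 0.12 against 0.03 for all genes without IFN-γ, and 0.14 against 0.02 with it. The groups did not overlap for 9 of the 10 members without IFN-γ, beside 80.9% of all genes, and for 10 with it, beside 82.7%. The test of the difference between the 2 settings, in which 2.38% of all genes were called, called 0 members by edgeR, 0 at an unadjusted p under 0.05 (14.8% of all genes), and 0 by DESeq2, limma-voom or limma on TPM.

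IFN-γ alone was tested in both cell experiments. In the TAK-243 experiment 4 of 10 members were called against control, all lower, beside 29% of all genes (19.6% higher and 9.39% lower), and 9 had groups that did not overlap, beside 62.7% of all genes. The balance of directions over all genes depended on the setting, with 2849 genes higher and 1367 lower in edgeR, 2137 and 1952 with at least 10 counts in every library, and 190 and 2683 with limma on TPM. In the guide experiment 0 of 9 tested members were called by edgeR, beside 3.88% of all genes, with 1 member at an unadjusted p under 0.05 (23% of all genes), 0 by DESeq2, limma-voom or limma on TPM, and 4 members whose groups did not overlap (50.9% of all genes). The difference between the 2 experiments was not tested. The sgUba1 cells had 3 of 9 members called (2 higher and 1 lower), beside 29.7% of all genes (16.2% higher and 13.6% lower). The 2 NC libraries, which are the controls there, differed more from each other than the replicates of any other cell group, at a mean chi-square over genes of 16.8 against 1.81 to 5.47. With IFN-γ in both arms the sgUba1 cells had 4 of 9 called (2 higher and 2 lower), beside 39.4% of all genes (17% higher and 22.4% lower). The difference between those effects, in which 4.64% of all genes were called, had 0 members called by edgeR, 2 at an unadjusted p under 0.05 (21.5% of all genes), and 0 by DESeq2, limma-voom or limma on TPM. Cul9 did not pass the filter on low counts in the guide experiment, where it had at most 12 estimated counts a library.

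None of the 4 tumor comparisons within a model called a scaffold gene in edgeR. For B16-BL6 sgUba1 against sgNC (0.724% of all genes called), 2 members were at an unadjusted p under 0.05 (16.3% of all genes) and 5 had groups that did not overlap (15.3% of all genes). DESeq2 called 2 of the members and 523 of all genes there, and limma-voom and limma on TPM called 0 members. For Myc-CaP tumors labelled sgUba1 against sgNC (3.04% called), 1 member was at an unadjusted p under 0.05 (23.7% of all genes), the other tools called 0, and 0 had groups that did not overlap (10.9% of all genes). For OE against EV (0.0269% called), 2 were at an unadjusted p under 0.05 (18.2%), the other tools called 0, and 2 had groups that did not overlap (20.7%). For TAK-243 against vehicle (0.145% called), 0 were at an unadjusted p under 0.05 (15%), the other tools called 0, and 0 had groups that did not overlap (2.03%). Between the control tumors of the 2 models, B16-BL6 against Myc-CaP, 8 of 10 members were called, 6 higher and 2 lower in B16-BL6, beside 59.9% of all genes (30.2% higher and 29.7% lower), and 10 had groups that did not overlap, beside 68.5% of all genes. Line, host strain, host sex and library set cannot be told apart in that last comparison.

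**Figure D3:**
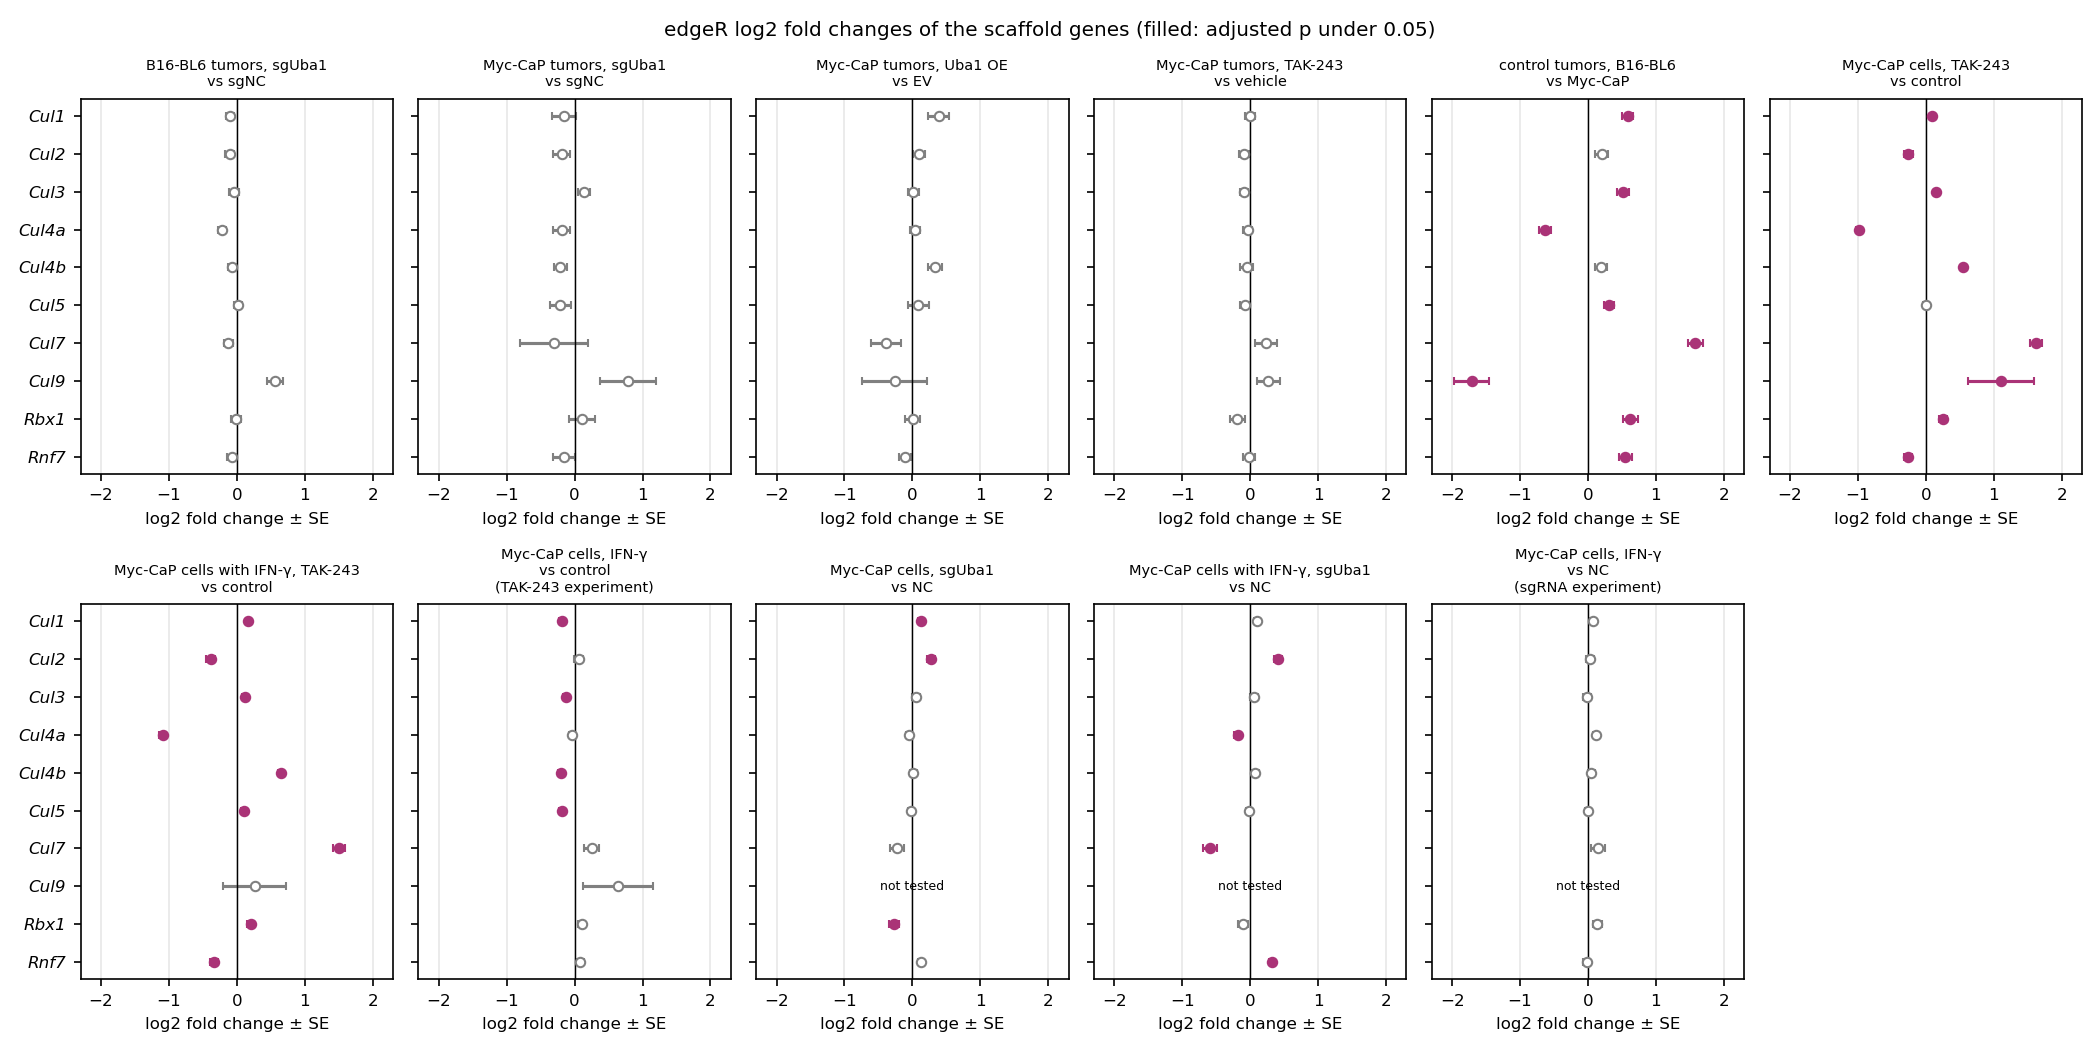
Log2 fold change of each scaffold gene with its SE (horizontal axes) in the comparisons of 2 groups; filled points have an edgeR adjusted p under 0.05. In cells with TAK-243 Cul4a lies at -0.98 and Cul7 at 1.62, while no point is filled in the comparisons within a tumor model.

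Cul4a and Cul4b carry the Ddb1-bound receptors that act in DNA repair and replication licensing. In cultured cells Cul4a stood at 119 and 116 CPM in control, 60.4 and 58.1 with TAK-243, 115 and 114 with IFN-γ, and 53.2 and 54.1 with both. All 4 libraries with TAK-243 lay far below the 4 without it. Cul4a fell with TAK-243, with a log2 fold change of -0.98 (SE 0.0481, 95% interval -1.07 to -0.89, edgeR adjusted p = 3.29e-17, both lower), which is 0.507 of the control level. With IFN-γ in both arms the log2 fold change was -1.09 (SE 0.0488, edgeR adjusted p = 3.32e-18, both lower). The difference between these was -0.11 (SE 0.0693, 95% interval -0.25 to 0.03, edgeR adjusted p = 0.492).

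Its paralog moved the other way. Cul4b stood at 119 and 124 CPM in control, 175 and 181 with TAK-243, 107 and 104 with IFN-γ, and 168 and 162 with both. All 4 libraries with TAK-243 were above all 4 without it. The log2 fold change was 0.55 (SE 0.0389, edgeR adjusted p = 1.75e-13, both higher) without IFN-γ and 0.65 (SE 0.0400, edgeR adjusted p = 8e-15, both higher) with it, and the difference of these was not called (0.09, edgeR adjusted p = 0.456). IFN-γ alone lowered Cul4b (log2 fold change -0.20, SE 0.0414, edgeR adjusted p = 0.000364, both lower). Over 16 alternatives that value ran from -0.43 to -0.17. For Cul4a IFN-γ gave -0.04, not called by edgeR, while limma on TPM called it at -0.26. In the guide experiment IFN-γ gave 0.052 for Cul4b and 0.12 for Cul4a in NC cells. Both libraries were higher for each gene, and edgeR called neither.

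The promoters of Cul4a, Cul4b and Cul7 are shown because these 3 cullins had the largest called differences between TAK-243 and control cells apart from the scarce Cul9. They were chosen after the values were seen. The sequences are from RefSeq for GRCm38.p6, a patch release of mm10, and hold the 250 bases before each gene's start, 5′ to 3′ on the gene's strand. Capitals mark matches on either strand to the motifs TGACGT (core of the cAMP response element), CACGTG (the E-box), GGGCGG (the GC box), CCAAT (the CCAAT box) and TGATGNAA (core of the element bound by ATF4 with a CEBP factor), also chosen after the values were seen.
Cul4a, chr8:13105373-13105622, plus strand: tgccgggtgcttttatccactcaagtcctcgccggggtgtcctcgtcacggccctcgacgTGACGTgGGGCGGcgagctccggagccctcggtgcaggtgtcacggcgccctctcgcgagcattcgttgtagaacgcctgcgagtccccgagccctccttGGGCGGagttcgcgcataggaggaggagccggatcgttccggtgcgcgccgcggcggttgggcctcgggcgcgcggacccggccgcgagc
Cul7, chr17:46650088-46650337, plus strand: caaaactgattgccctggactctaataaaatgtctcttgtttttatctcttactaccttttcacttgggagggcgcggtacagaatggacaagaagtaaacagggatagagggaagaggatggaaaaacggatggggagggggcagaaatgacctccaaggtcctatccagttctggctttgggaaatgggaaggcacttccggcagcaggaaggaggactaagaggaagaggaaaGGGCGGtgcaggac
Cul4b, chrX:38576197-38576446, minus strand: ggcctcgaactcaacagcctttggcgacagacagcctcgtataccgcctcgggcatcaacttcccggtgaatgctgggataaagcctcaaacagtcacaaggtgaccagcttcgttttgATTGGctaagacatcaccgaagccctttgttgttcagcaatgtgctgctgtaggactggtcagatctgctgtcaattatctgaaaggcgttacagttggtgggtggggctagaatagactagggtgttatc
The Cul4a window held 1 TGACGT and 2 GGGCGG, the Cul7 window 1 GGGCGG, and the Cul4b window 1 CCAAT read on the other strand as ATTGG. Over all 32851 windows of 250 bases, 6.47% held TGACGT, 6.02% CACGTG, 32.7% GGGCGG, 33.8% CCAAT and 3.45% TGATGNAA. In all, 9 of the 10 members had a window, and Cul2 is named only. TGACGT was also in the windows of Cul3 (1) and Rnf7 (2), CACGTG in 1 window of Cul1, GGGCGG in those of Cul1, Cul3, Rbx1 and Rnf7, and CCAAT in those of Cul9, Rbx1 and Rnf7. The Cul5 window held none of the letters searched. A match describes the letters only.

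In sgUba1 cells Cul4a and Cul4b stayed near the NC levels. Cul4a stood at 126 and 124 CPM in NC and 125 and 117 in sgUba1, with overlap, and at 135 and 136 in NC with IFN-γ against 118 and 121 in sgUba1 with IFN-γ, without overlap. The first difference was not called (log2 fold change -0.05, SE 0.0480, edgeR adjusted p = 0.505). With IFN-γ Cul4a was called lower (-0.18, SE 0.0478, edgeR adjusted p = 0.00941, both lower), and the difference between the settings was -0.14 (edgeR adjusted p = 0.276). That call was lost without NC with IFN-γ replicate 1 (-0.19, edgeR adjusted p = 0.0531) or 2 (-0.18, 0.0735), without sgUba1 replicate 2 (-0.13, 0.0604), and without sgUba1 with IFN-γ replicate 1 (-0.11, 0.216) or 2 (-0.16, 0.0785), all by edgeR. Cul4b ran from 111 to 118 CPM in NC, sgUba1 and NC with IFN-γ and stood at 125 and 124 in sgUba1 with IFN-γ, and it was not called in either setting.

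**Figure D4:**
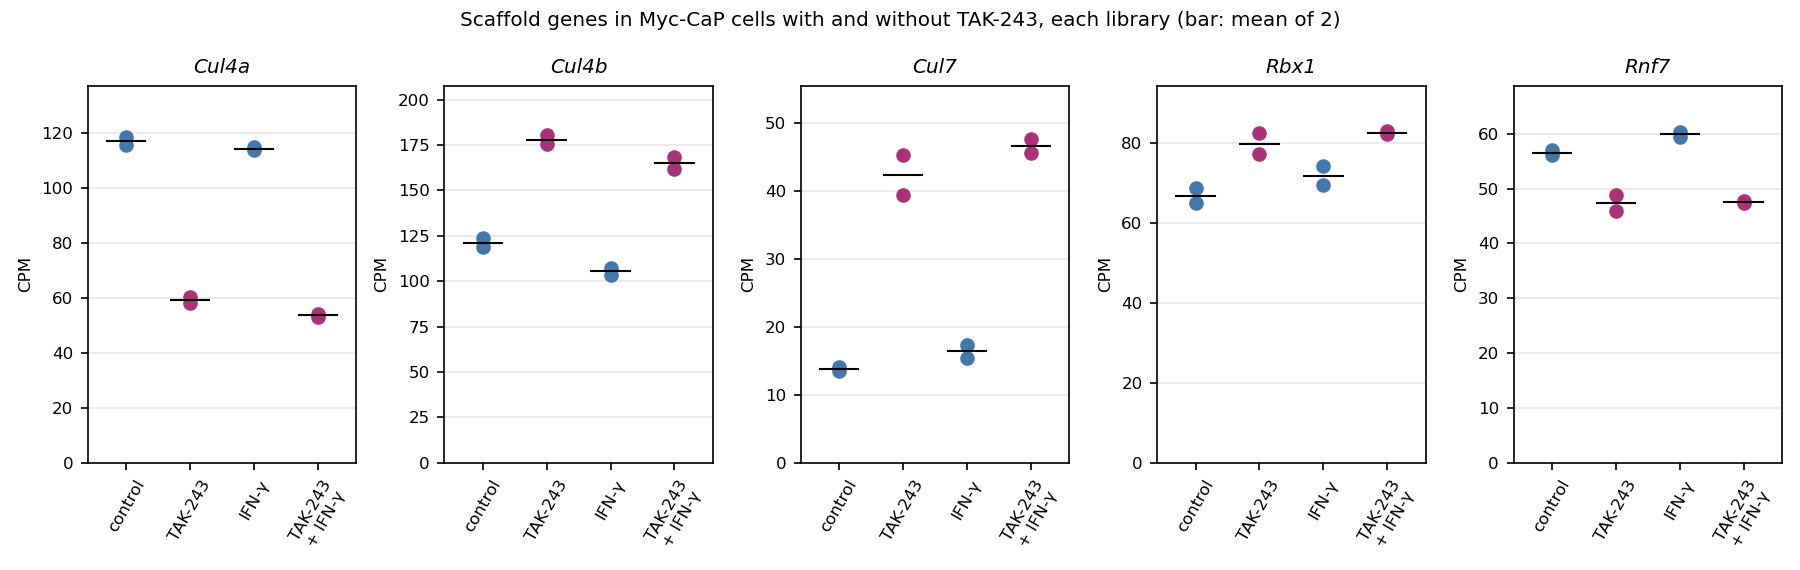
CPM (vertical axes, from 0) of Cul4a, Cul4b, Cul7, Rbx1 and Rnf7 in the libraries of the TAK-243 cell experiment; points are libraries and bars are means of 2. The libraries with TAK-243 sit at 53.2 to 60.4 CPM for Cul4a, below 114 to 119 without it, and at 39.5 to 47.6 CPM for Cul7, above 13.5 to 17.3.

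Tumors showed no such separation with TAK-243. Cul4a ran from 131 to 154 CPM (median 145) in vehicle tumors and stood at 149, 136, 142, 133 and 144 with TAK-243. Cul4b ran from 68.0 to 78.2 CPM (median 76.2) and stood at 69.1, 60.4, 75.3, 66.0 and 88.3. Both sets overlapped throughout, with log2 fold changes of -0.04 and -0.05, and neither was called by edgeR. In B16-BL6 Cul4a stood at 90.4, 95.7 and 86.2 CPM in sgNC and at 75.4, 77.9, 78.3 and 79.8 in sgUba1, without overlap. The log2 fold change of -0.22 (SE 0.0591, 4 of 4 lower) missed the threshold in edgeR (adjusted p = 0.136) and passed it in DESeq2 (adjusted p = 0.0382), and over 14 alternatives the adjusted p ran from 0.0382 to 0.467.

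Among Myc-CaP tumors labelled sgUba1, Cul4a stood at 143, 140 and 127 CPM in replicates 1 to 3 and at 102, 110, 114 and 111 in replicates 4 to 7, against 131, 147 and 137 in sgNC. Replicates 3 to 7 were thus below every sgNC library. Cul4b was below the sgNC mean in 7 of 7 (67.8, 79.5 and 74.5 CPM in sgNC, 56.7 to 71.1 with a median of 64.1 in sgUba1). Its log2 fold change of -0.21 (SE 0.0948) had an unadjusted p of 0.0469 and an edgeR adjusted p of 0.205. In OE tumors Cul4b stood at 93.2, 77.2, 71.9 and 74.3 CPM against 64.6, 61.0 and 62.6 in EV, without overlap, but the log2 fold change of 0.33 (SE 0.106, 4 of 4 higher) was not called (edgeR adjusted p = 0.178). Between control tumors Cul4a was lower in B16-BL6 than in Myc-CaP (mean 88.4 against 137 CPM in their joint fit, log2 fold change -0.63, SE 0.0881, edgeR adjusted p = 0.000818, 3 of 3 lower). Cul4b was not called there (0.19, SE 0.0894, edgeR adjusted p = 0.113), except without Myc-CaP sgNC replicate 2 (0.24, edgeR adjusted p = 0.0346).

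Cul7 and Cul9 are the largest and most divergent cullins. Cul7 assembles with Fbxw8 and, in a complex with Obsl1 and Ccdc8, serves growth, while Cul9 has been tied to p53. In cells Cul7 stood at 13.5 and 14.2 CPM in control, 45.3 and 39.5 with TAK-243, 15.5 and 17.3 with IFN-γ, and 47.6 and 45.6 with both. The libraries with TAK-243 were far above all others. Cul7 rose by a log2 fold change of 1.62 (SE 0.0950, edgeR adjusted p = 2.22e-15, both higher), a fold of 3.08, and by 1.5 (SE 0.0918, edgeR adjusted p = 5.78e-15, both higher) with IFN-γ in both arms. The difference of these was -0.12 (SE 0.135, edgeR adjusted p = 0.750).

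In the guide experiment Cul7 leaned the other way. It stood at 15.1 and 17.3 CPM in NC and 14.5 and 13.3 in sgUba1, without overlap, and at 19.4 and 16.6 in NC with IFN-γ against 12.5 and 11.3 in sgUba1 with IFN-γ. Without IFN-γ the log2 fold change of -0.22 (SE 0.102, both lower) was not called (edgeR adjusted p = 0.133), except without NC replicate 1 (-0.31, edgeR adjusted p = 0.0400). Over 16 alternatives the value without IFN-γ ran from -0.31 to -0.12. With IFN-γ Cul7 fell (-0.59, SE 0.102, edgeR adjusted p = 0.000755, both lower) in all 16 alternatives. The difference between the settings was -0.37 (SE 0.144, edgeR adjusted p = 0.164), called only without NC replicate 2 (-0.47, edgeR adjusted p = 0.0458).

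Every tumor held more Cul7 than any control or NC cell library on the TPM scale (at least 5.20 against at most 4.76 TPM), which was not tested because cells and tumors were separate library sets. In the tumors labelled sgUba1 Cul7 stood at 81.9, 64.3 and 83.6 CPM in replicates 1 to 3 and at 22.9, 20.6, 24.3 and 20.1 in replicates 4 to 7, around 63.5, 49.8 and 55.2 in sgNC. Cul9 had the opposite layout, with 13.9, 14.6 and 11 CPM in replicates 1 to 3 and 29.8, 38, 32.5 and 30.3 in replicates 4 to 7, against 19.0, 9.87 and 13.4 in sgNC. The label as a whole gave log2 fold changes of -0.31 for Cul7 (SE 0.501, edgeR adjusted p = 0.749) and 0.78 for Cul9 (SE 0.411, edgeR adjusted p = 0.275). Over the 16 alternatives other than the replicate block the values ran from -0.58 to -0.18 for Cul7 and from 0.53 to 1.06 for Cul9. With the block both changed sign, and none of the 17 called either gene. A split of the 7 tumors was not tested, since the labels give no such groups. The summed myeloid markers (14 of 14 above 1 TPM, Lyz2 on top) were 725, 627, 1008, 602, 580, 602 and 821 TPM in these 7 tumors against 337, 636 and 379 in sgNC. The summed keratinocyte markers (3 of 12 above 1 TPM on average, most of the sum being Krt15, Krt5, Lor, Flg and Krtdap at 0) were 12.2 to 101 TPM against 201, 1406 and 515. Myc-CaP control cells in culture averaged 931 TPM of Krt15, also with Krt5, Lor, Flg and Krtdap at 0, so this sum is not specific to skin. The summed T and NK cell markers (4 of 13 above 1 TPM on average, Cd3d on top, none at 0 throughout) were 22.2, 13.3, 29.5, 17.3, 24.8, 22.3 and 19.2 TPM against 13.6, 13.4 and 9.67. The part of these markers in the Cul7 and Cul9 values was not tested.

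**Figure D5:**
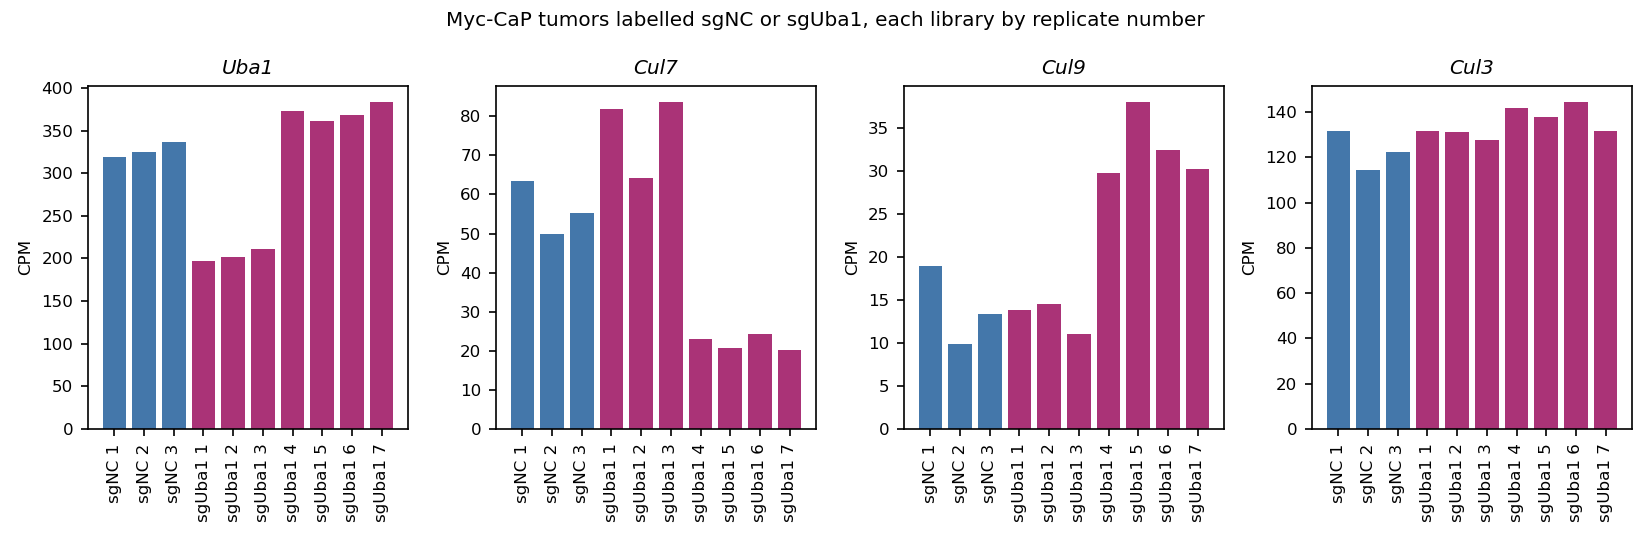
CPM (vertical axes, from 0) of Uba1, Cul7, Cul9 and Cul3 in each Myc-CaP tumor labelled sgNC or sgUba1, by replicate number. Replicates 4 to 7 of sgUba1 have 361 to 383 CPM of Uba1, 20.1 to 24.3 of Cul7 and 29.8 to 38 of Cul9, while replicates 1 to 3 have 197 to 211, 64.3 to 83.6 and 11 to 14.6.

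In B16-BL6 tumors Cul9 stood at 4.60, 3.87 and 4.66 CPM in sgNC and 6.61, 6.68, 6.54 and 5.99 in sgUba1, without overlap. The log2 fold change of 0.56 (SE 0.122, 95% interval 0.32 to 0.80, 4 of 4 higher) missed the threshold in edgeR (adjusted p = 0.0811) and passed it in DESeq2 (adjusted p = 0.0191), with adjusted p from 0.0191 to 0.372 over 14 alternatives. Cul7 stood at 168, 173 and 171 CPM against 142, 154, 167 and 164, also without overlap and not called (-0.12, edgeR adjusted p = 0.398). The summed skeletal muscle markers (12 of 14 above 1 TPM, Acta1 on top) were 14.5, 15.4 and 92.4 TPM in sgNC and 22.3, 121, 18.9 and 343 in sgUba1, and the summed myeloid markers were 166, 142 and 248 TPM against 308, 265, 290 and 243. The summed T and NK cell markers (2 of 13 above 1 TPM in sgNC and 3 in sgUba1, Cd3d on top) were 6.21, 6.52 and 8.72 TPM against 9.73, 9.58, 10.7 and 12.1. Cultured Myc-CaP cells averaged 4.96 TPM of that list in control (Cd3d 2.99 TPM) and 6.44 TPM in NC (Cd3d 4.78 TPM). No cultured B16-BL6 cells were in the series. The part of all these markers in the Cul7 and Cul9 values was not tested.

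In OE tumors replicate 1 was the lowest for both genes. Cul7 was at 23.5 CPM there and at 37.8, 46.1 and 44.2 in the others, against 42.5, 50.2 and 56.3 in EV, and Cul9 was at 2.58 CPM there and 10.1, 16.4 and 14.9 in the others, against 12.5, 13.4 and 13.8. Neither was called (log2 fold changes -0.39 and -0.26). Without OE replicate 1 the values were -0.22 for Cul7 and 0.07 for Cul9, also not called. Over 14 alternatives the values ran from -0.51 to -0.22 for Cul7 and from -0.70 to 0.07 for Cul9. The same OE replicate 1 had the highest summed muscle markers (646 TPM against 274, 117 and 92.4 in the other OE tumors and 108, 96.2 and 124 in EV). It also had the highest keratinocyte markers (1079 TPM against 387, 365 and 249, and 51.4, 164 and 74.0 in EV), and the lowest myeloid markers (160 TPM against 357, 586 and 361, and 460, 467 and 563 in EV). Most of the keratinocyte sum was Krt15, which averaged 511 of 520 TPM in OE and 85.0 of 96.4 TPM in EV. The rest of that list was lower in OE (8.76 TPM) than in EV (11.45 TPM). Control cells in culture averaged 931 TPM of Krt15. The summed T and NK cell markers were lower in all 4 OE tumors (5.91, 6.59, 9.40 and 9.57 TPM) than in EV (20.8, 16 and 21.9 TPM), with Cd3d on top in both and Gzma and Nkg7 at 0 in OE. That list averaged 4.96 TPM in control and 6.44 TPM in NC cells in culture, also with Cd3d on top. The part of these markers was not tested.

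With TAK-243 in mice Cul7 stood at 57.3, 56.7, 57.7, 97.8 and 70.7 CPM against 45.6 to 69.6 (median 58.3) with vehicle, and Cul9 at 17.4, 16.9, 13.9, 20.2 and 14.8 against 8.26 to 17.9 (median 14.4). The groups overlapped and neither was called (log2 fold changes 0.23, SE 0.163, and 0.27, SE 0.166, with edgeR adjusted p of 0.528 and 0.471). Over 18 alternatives the values ran from 0.063 to 0.289 for Cul7 and from 0.159 to 0.345 for Cul9, none of them called. Between the control tumors Cul7 was higher in B16-BL6 (166 against 55.6 CPM, log2 fold change 1.58, SE 0.108, edgeR adjusted p = 2.79e-05, 3 of 3 higher) and Cul9 was lower (4.26 against 13.9 CPM, -1.71, SE 0.254, edgeR adjusted p = 0.00108, 3 of 3 lower).

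Cul9 was scarce in cells, with 6 to 21 estimated counts a library in the TAK-243 experiment. It stood at 0.830 and 0.375 CPM in control and 0.982 and 1.69 with TAK-243, and was called at the margin (log2 fold change 1.11, SE 0.489, edgeR adjusted p = 0.0478, both higher). The call held in 5 of 14 alternatives. It was lost without control replicate 2 (0.64, edgeR adjusted p = 0.359) and TAK-243 replicate 2 (0.65, 0.388), where the value also shrank by over 1.5 times, while it grew by as much without control replicate 1 (1.77, 0.0254). It was also lost without either replicate of IFN-γ (1.10, 0.0617 and 0.0622) or of TAK-243 with IFN-γ (1.06 and 1.05, 0.0763 and 0.0800), all by edgeR. With IFN-γ in both arms it was not called (0.26, edgeR adjusted p = 0.634).

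Cul1 is the scaffold of the SCF ligases, which use Skp1 and F-box receptors to control the cell cycle. It stood at 214 and 208 CPM in control cells, 221 and 227 with TAK-243, 183 and 186 with IFN-γ, and 208 and 206 with both. IFN-γ libraries were the lowest. The IFN-γ effect was -0.19 (SE 0.0328, edgeR adjusted p = 3.81e-05, both lower) and held in all 16 alternatives, as did the rise with TAK-243 in the presence of IFN-γ (0.17, SE 0.0330, edgeR adjusted p = 5.17e-05, both higher). The calls held but the sizes varied, from -0.42 to -0.17 for the IFN-γ effect and from 0.14 to 0.36 for that rise. In the guide experiment IFN-γ gave 0.071 for Cul1 in NC cells, with both libraries higher and no call by edgeR. The rise with TAK-243 alone was called (0.09, SE 0.0322, edgeR adjusted p = 0.0183, both higher) but held in only 7 of 16 alternatives. It was lost without control replicate 2 (0.06, edgeR adjusted p = 0.249), TAK-243 replicate 1 (0.05, 0.287) or 2 (0.02, 0.624), or TAK-243 with IFN-γ replicate 1 (0.04, 0.334) or 2 (0.03, 0.453), and by DESeq2 (0.09, adjusted p = 0.148) and limma on TPM (0.11, adjusted p = 0.0549).

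In sgUba1 cells Cul1 stood at 200 and 203 CPM against 183 and 185 in NC, and with IFN-γ at 209 and 206 against 191 and 196, above the NC libraries in both settings. The log2 fold change was 0.13 (SE 0.0446, edgeR adjusted p = 0.0465, both higher) and 0.11 (SE 0.0444, edgeR adjusted p = 0.0851, both higher). The first call held in 3 of 16 alternatives and was lost without either replicate of NC with IFN-γ (0.13 for both, edgeR adjusted p = 0.0914 and 0.0922), of sgUba1 (0.11 for both, 0.244 and 0.239) or of sgUba1 with IFN-γ (0.13 for both, 0.0660 and 0.0654). The other comparison was called in 6 of 16 alternatives. It gained the call with at least 10 counts in every library (0.13, edgeR adjusted p = 0.03) and with only the 4 libraries compared (0.11, 0.0313), without either NC replicate (0.10 for both, edgeR adjusted p = 0.0275 and 0.0277), without sgUba1 replicate 2 (0.16, 0.0330) and without sgUba1 with IFN-γ replicate 2 (0.16, 0.0492). The difference of the effects was -0.03 (edgeR adjusted p = 0.859).

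In tumors Cul1 was highest in OE replicate 1, at 266 CPM, with 203, 163 and 188 in the other OE tumors and 158, 160 and 153 in EV. All 4 OE tumors were above all EV tumors, but the log2 fold change of 0.39 (SE 0.155) was not called (edgeR adjusted p = 0.248). Over 14 alternatives the value ran from 0.23 to 0.47 and was never called. The tumors labelled sgUba1 had 153, 154 and 159 CPM in replicates 1 to 3 and 101, 98.2, 106 and 110 in replicates 4 to 7, on either side of 142, 143 and 137 in sgNC (log2 fold change -0.16, not called by edgeR). B16-BL6 sgUba1 tumors had 202, 203, 195 and 199 CPM against 215, 222 and 206, without overlap and not called (-0.10, edgeR adjusted p = 0.406). Vehicle tumors (156 to 197, median 171) and TAK-243 tumors (157 to 191) overlapped. B16-BL6 control tumors held more Cul1 than Myc-CaP ones (209 against 139 CPM, log2 fold change 0.59, SE 0.0794, edgeR adjusted p = 0.000707, 3 of 3 higher).

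Cul3 works with BTB-domain receptors such as Keap1 and Spop, the latter a gene often mutated in prostate cancer. It stood at 145 and 144 CPM in control cells, 161 and 161 with TAK-243, 136 and 127 with IFN-γ, and 139 and 147 with both, so that TAK-243 libraries were above their own controls in each setting. The log2 fold changes were 0.16 (SE 0.0394, edgeR adjusted p = 0.000902, both higher) and 0.12 (SE 0.0405, edgeR adjusted p = 0.00952, both higher). The former was lost without TAK-243 replicate 1 (0.10, edgeR adjusted p = 0.0872) and by limma on TPM (0.14, adjusted p = 0.0611), and shrank by over 1.5 times without TAK-243 with IFN-γ replicate 2 (0.10, 0.031), and the latter without IFN-γ replicate 2 (0.07, 0.262) or TAK-243 with IFN-γ replicate 2 (0.06, 0.287) and by DESeq2 (adjusted p = 0.0759). IFN-γ alone lowered Cul3 by edgeR (-0.13, SE 0.0402, edgeR adjusted p = 0.0125, both lower), a call lost without control replicate 1 (-0.13, 0.0711) or 2 (-0.14, 0.0545) or IFN-γ replicate 2 (-0.09, 0.256) and by DESeq2 (adjusted p = 0.110).

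Elsewhere Cul3 was not called within a line. It ran from 146 to 165 CPM in the guide cell experiment, from 118 to 139 in vehicle and 113 to 122 in TAK-243 tumors, from 122 to 137 in EV and OE tumors, and from 155 to 185 in B16-BL6 tumors. In tumors labelled sgUba1 it ran from 128 to 144 CPM (median 132) against 132, 114 and 122 in sgNC, with 7 of 7 above the sgNC mean (log2 fold change 0.14, edgeR adjusted p = 0.334). It was higher in B16-BL6 than in Myc-CaP control tumors (174 against 121 CPM, log2 fold change 0.52, SE 0.0893, edgeR adjusted p = 0.00224, 3 of 3 higher).

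Cul2 and Cul5 both use the Elongin adaptors Elob and Eloc, Cul2 with receptors such as Vhl and Cul5 with SOCS-box proteins that curb cytokine signaling. Cul2 stood at 58.6 and 57.3 CPM in control cells, 47.8 and 49.1 with TAK-243, 58.2 and 62.7 with IFN-γ, and 48.5 and 44.5 with both. Every library with TAK-243 was below every library without it. Cul2 fell by log2 fold changes of -0.26 (SE 0.0657, edgeR adjusted p = 0.000930, both lower) and -0.38 (SE 0.0657, edgeR adjusted p = 7.35e-06, both lower), each in all 16 alternatives.

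In sgUba1 cells Cul2 was higher instead. It stood at 58.5 and 64.2 CPM against 52.3 and 49.0 in NC, and with IFN-γ at 69.7 and 68.1 against 52.1 and 51.5. The log2 fold changes were 0.28 (SE 0.0574, edgeR adjusted p = 0.00374, both higher) and 0.41 (SE 0.0565, edgeR adjusted p = 0.000165, both higher), and their difference was 0.13 (SE 0.0805, edgeR adjusted p = 0.372). The first was lost without sgUba1 replicate 2 (0.21, edgeR adjusted p = 0.0597), and the other held in all 16 alternatives. In B16-BL6 tumors Cul2 stood at 39.9, 44.7 and 40.2 CPM in sgNC and at 37.8, 39.6, 37.3 and 39.9 in sgUba1, all lower but not called (-0.11, edgeR adjusted p = 0.462). Over the Myc-CaP tumors it ran from 25.4 to 44.6 CPM, and it was called in no tumor comparison by edgeR.

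Cul5 was the steadiest member in cells treated with TAK-243, at 131 and 134 CPM in control and 130 and 135 with TAK-243 (log2 fold change -0.00, SE 0.0429, edgeR adjusted p = 0.966). IFN-γ lowered it to 113 and 120 CPM (-0.19, SE 0.0434, edgeR adjusted p = 0.00115, both lower), a call lost without IFN-γ replicate 1 (-0.15, edgeR adjusted p = 0.0569). With both agents it stood at 120 and 129 CPM, called higher than with IFN-γ alone (0.10, SE 0.0440, edgeR adjusted p = 0.0365) in 10 of 16 alternatives. That call was lost without control replicate 1 (0.10, edgeR adjusted p = 0.0598) or 2 (0.10, 0.0600), IFN-γ replicate 1 (0.05, 0.406) or TAK-243 with IFN-γ replicate 2 (0.04, 0.580), and by DESeq2 (0.11, adjusted p = 0.165). In the guide cell experiment Cul5 ran from 143 to 151 CPM and was not called.

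Among tumors Cul5 had 90.3, 87.1 and 89.6 CPM in replicates 1 to 3 labelled sgUba1 and 67.7, 60.1, 69.9 and 61.2 in replicates 4 to 7, against 84.2, 92.4 and 84.0 in sgNC. OE replicate 1 was again the highest of its set, at 120 CPM against 77.4 to 89.0 in all other OE and EV tumors. No comparison within a model called it in edgeR. B16-BL6 control tumors were higher than Myc-CaP ones (106 against 85.9 CPM, log2 fold change 0.31, SE 0.0785, edgeR adjusted p = 0.0124, 3 of 3 higher), while limma on TPM did not call it (0.18, adjusted p = 0.114).

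Rbx1 and Rnf7 are the RING partners that recruit the charged E2 enzyme, Rbx1 for most cullins and Rnf7 for Cul5. Rbx1 stood at 64.9 and 68.6 CPM in control cells, 77.0 and 82.3 with TAK-243, 74.0 and 69.4 with IFN-γ, and 82.1 and 82.8 with both. Rnf7 stood at 56.2 and 57.0, 45.9 and 48.9, 59.4 and 60.4, and 47.7 and 47.3 CPM in the same groups. The partners thus moved in opposite directions with TAK-243, and the libraries with and without it did not overlap for either.

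Rbx1 rose by a log2 fold change of 0.25 (SE 0.0544, edgeR adjusted p = 0.000163, both higher) and Rnf7 fell by 0.26 (SE 0.0634, edgeR adjusted p = 0.000648, both lower). With IFN-γ in both arms the values were 0.20 (SE 0.0536, edgeR adjusted p = 0.00142, both higher) and -0.33 (SE 0.0629, edgeR adjusted p = 2.54e-05, both lower). The Rbx1 value without IFN-γ shrank to 0.16 without TAK-243 replicate 2 (edgeR adjusted p = 0.0316), and the call with IFN-γ was lost without IFN-γ replicate 2 (0.15, edgeR adjusted p = 0.0600). Per length, Rbx1 made up 56.8% and 58.4% of the summed TPM of the pair in control cells and 64.0% and 64.8% with TAK-243.

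The sgUba1 cells showed the reverse arrangement. Rbx1 stood at 46.6 and 45.4 CPM against 59.9 and 51.2 in NC, and with IFN-γ at 59.1 and 54.2 against 61.9 and 60.3. Rnf7 stood at 58.8 and 58.5 against 54.4 and 52.8, and with IFN-γ at 67.0 and 65.1 against 52.9 and 52.8. Neither gene overlapped in either setting. Rbx1 was called lower without IFN-γ (log2 fold change -0.27, SE 0.0728, edgeR adjusted p = 0.0155, both lower) and not with it (-0.11, SE 0.0711, edgeR adjusted p = 0.258), although limma on TPM called it with IFN-γ too (-0.21, adjusted p = 0.0440). Over 16 alternatives the Rbx1 value with IFN-γ ran from -0.21 to -0.00178. Rnf7 was called higher with IFN-γ (0.32, SE 0.0455, edgeR adjusted p = 0.000202, both higher, all 16 alternatives) and not without it (0.13, SE 0.0461, edgeR adjusted p = 0.0529).

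The differences between those settings were 0.16 for Rbx1 (SE 0.102, edgeR adjusted p = 0.399) and 0.19 for Rnf7 (SE 0.0647, edgeR adjusted p = 0.115). Neither was called, except without NC replicate 2 (0.27 and 0.21 by edgeR). Over 15 alternatives the differences ran from 0.04 to 0.27 for Rbx1 and from 0.17 to 0.26 for Rnf7. The Rbx1 call was lost without NC replicate 1 (-0.15, edgeR adjusted p = 0.0586) and sgUba1 replicate 2 (-0.26, 0.0979), and with only the 4 libraries compared (-0.28, 0.0582). Without NC replicate 1 Rnf7 was called higher in sgUba1 than in NC cells without IFN-γ (0.15, edgeR adjusted p = 0.0243), as was a higher Rbx1 with IFN-γ in NC cells (0.26, edgeR adjusted p = 0.00829, against 0.14 and 0.275 with all libraries). The share of Rbx1 in the pair's summed TPM was 53.4% and 53.6% in NC and 45.7% and 46.2% in sgUba1 cells.

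In tumors labelled sgUba1 Rbx1 stood at 42.3, 37.1 and 39.8 CPM in replicates 1 to 3 and at 64.4, 61.8, 59.1 and 51.4 in replicates 4 to 7, against 44.7, 43.5 and 53.0 in sgNC. Rnf7 stood at 48.1, 46.4 and 49.8 CPM and at 31.3, 33.1, 35.3 and 34.3, against 45.9, 46.3 and 40.9. Replicates 4 to 6 were thus above every sgNC tumor in Rbx1, and replicates 4 to 7 below every one in Rnf7. Neither gene was called for the label (log2 fold changes 0.11 and -0.16).

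In the other comparisons within a tumor model the groups overlapped for both RING partners. Rbx1 ran from 47.3 to 69.3 CPM (median 56.6) in vehicle and stood at 54.1, 52.4, 55.3, 45.3 and 42.8 with TAK-243, where 5 of 5 were below the vehicle mean and the log2 fold change was -0.19 (SE 0.107, edgeR adjusted p = 0.430). Rnf7 ran from 37.6 to 51.3 CPM over vehicle and TAK-243 tumors. Both were higher in B16-BL6 than in Myc-CaP control tumors, Rbx1 with 71.8 against 46.6 CPM (0.62, SE 0.106, edgeR adjusted p = 0.00204, 3 of 3 higher) and Rnf7 with 64.2 against 43.9 CPM (0.55, SE 0.0967, edgeR adjusted p = 0.00243, 3 of 3 higher).

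Estimated counts of Cul1, Cul2, Cul3, Cul4a, Cul4b and Rnf7 were within 0.01 of a whole number in 51 of 51 libraries, a tolerance chosen after the distances were seen. Those of Cul7 were whole in 31, of Cul9 in 28, of Cul5 in 5 and of Rbx1 in 2. The reason was not determined. The pseudogene Rbx1-ps was at 0 in 47 of 51 libraries and never above 0.0962% of the sum with Rbx1.

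Members were also compared over all 51 libraries by the Pearson correlation of log2 CPM centred on the mean of each experiment, a description over libraries that share treatments. The gene most like each member among 9538 genes was Atmin for Cul4a (r = 0.934), Otud5 for Cul7 (0.924), Rlim for Cul4b (0.883), Syncrip for Cul5 (0.831), Snu13 for Rbx1 (0.828), Ddx3x for Cul1 (0.825), Atp1b3 for Rnf7 (0.815), Ptgds for Cul9 (0.792), Rabggtb for Cul2 (0.774) and Trmt10c for Cul3 (0.760).

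The rest of the cullin pathway was followed in lists of regulators, adaptors and receptors. With TAK-243 in cells 104 of 127 tested genes were called (81.9%, 58 higher and 46 lower), beside 66.3% of all genes. Of the neddylation genes 9 of 10 were called (5 higher and 4 lower), of the deneddylation and exchange genes 13 of 14 (6 and 7), of the adaptors and Cul7 partners 5 of 7 (5 and 0), of the ubiquitin transfer partners 9 of 9 (6 and 3), and of the distant cullin relatives of the anaphase-promoting complex and Cacul1 3 of 3 (2 and 1). Receptors were called for 7 of 10 with Cul1 (4 and 3), 11 of 11 with Cul2 (5 and 6), 17 of 20 with Cul3 (8 and 9), 16 of 22 with Cul4 (9 and 7) and 14 of 21 with Cul5 (8 and 6). Directions were thus mixed in every list but the adaptors. The largest falls were in Fbxo31 (log2 fold change -1.95, SE 0.120), Dcaf6 (-1.80, SE 0.0968) and Fem1a (-1.60, SE 0.0764), receptors of Cul1, Cul4 and Cul2. The largest rises were in the SOCS-box receptors Spsb1 (1.54, SE 0.0955), Wsb1 (1.47, SE 0.0423) and Socs7 (1.28, SE 0.0630), all of them Cul5 receptors, with edgeR adjusted p at or below 9.41e-15 for these 6.

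With IFN-γ in both arms TAK-243 gave 94 called of 127 (74.0%, 48 higher and 46 lower), beside 68.2% of all genes (32% higher and 36.2% lower). By list they were 9 neddylation, 13 deneddylation and exchange, 5 adaptor, 6 transfer partner and 3 relative genes, and 7, 10, 14, 16 and 11 receptors of Cul1, Cul2, Cul3, Cul4 and Cul5. Fbxo31 (log2 fold change -2.11), Dcaf6 (-1.90) and Fem1a (-1.79) were again the lowest, and Cand2 (1.61), Wsb1 (1.48) and Spsb1 (1.39) the highest. Where the effect of TAK-243 differed with IFN-γ, 5 list genes were called, all more negative with IFN-γ, beside 2.38% of all genes (0.371% higher and 2.01% lower). That lean of all genes was 54 higher and 293 lower in edgeR but 158 and 136 with at least 10 counts in every library. The 5 included Klhdc2 (-0.34, SE 0.0888, edgeR adjusted p = 0.0306), Elob (-0.23, SE 0.0561, edgeR adjusted p = 0.0206) and Ube2l3 (-0.22, SE 0.0558, edgeR adjusted p = 0.0252). Each of these 3 calls was lost in several of the fits that left out 1 library, all 3 of them without control replicate 2, TAK-243 replicate 1, IFN-γ replicate 2 or either replicate with both agents, and none was called by limma on TPM (edgeR adjusted p without TAK-243 replicate 1 was 0.250, 0.308 and 0.156).

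Among the 12 keratinocyte markers, Krt15 carried the difference with TAK-243 in these cultures. The list summed to 949 and 944 TPM in control and 225 and 225 with TAK-243, and to 871 and 892 with IFN-γ and 217 and 217 with both. Krt15 averaged 931 TPM in control and 137 TPM with TAK-243, while the other 11 markers together averaged 15.8 and 87.7 TPM. Of the 12, 2 were above 1 TPM without TAK-243 and 4 with it, and Krt10, Lor, Flg and Krtdap were at 0 in all 4 groups. Their part in the members' values was not tested. T and NK cell markers (13 of 14 in the table, Cd3d on top) summed to at most 7.59 TPM in any cell library, and endothelial markers to at most 6.74.

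IFN-γ alone, in the TAK-243 experiment, gave 53 of 127 list genes called (41.7%, 36 higher and 17 lower), beside 29% of all genes (19.6% higher and 9.39% lower). Among them were 12 of 22 Cul4 receptors, 7 of 20 Cul3 receptors and 7 of 14 deneddylation and exchange genes. The named ones were Wdtc1 (log2 fold change 0.53), Zer1 (0.52) and Cdc34 (0.40), which rose, and Phip (-0.36), Dcaf17 (-0.31) and Crbn (-0.31), which fell. Calls were lost without control replicate 1 (Zer1, 0.38, edgeR adjusted p = 0.209), control replicate 2 (Crbn, -0.26, 0.142, and Dcaf17, -0.26, 0.127), IFN-γ replicate 1 (Zer1, 0.44, 0.151, and Crbn, -0.28, 0.107) and IFN-γ replicate 2 (Crbn, -0.33, 0.0662, and Dcaf17, -0.21, 0.261). In the guide experiment IFN-γ gave 10 of 127 called, all higher, beside 3.88% of all genes (3.03% higher and 0.856% lower), including Asb6 (0.37), Anapc11 (0.27) and Klhl22 (0.24), each lost in the fits without any single library of NC with IFN-γ or of either sgUba1 group (edgeR adjusted p = 0.267, 0.283 and 0.308 without NC with IFN-γ replicate 1).

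In sgUba1 cells 50 of 127 list genes were called (39.4%, 33 higher and 17 lower), beside 29.7% of all genes. All 7 called Cul2 receptors (of 11) were higher, and 9 of the 12 called Cul4 receptors were higher. The others were 1 neddylation, 6 deneddylation and exchange, 1 adaptor, 2 transfer partner and 2 relative genes, and 4, 7 and 8 receptors of Cul1, Cul3 and Cul5. The largest falls were Kctd13 (log2 fold change -0.66, SE 0.154, edgeR adjusted p = 0.00735), the COP9 subunit Cops6 (-0.42, SE 0.0445, edgeR adjusted p = 5.48e-05) and Anapc2 (-0.39, SE 0.0477, edgeR adjusted p = 0.000139), and the largest rises were Socs2 (0.42), Fbxl5 (0.38) and Klhdc2 (0.33). The Kctd13 call was lost without NC replicate 2 (-0.39, edgeR adjusted p = 0.0590), where the value also shrank by over 1.5 times, and without sgUba1 replicate 2 (-0.65, 0.0537).

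With IFN-γ 59 of 127 were called in sgUba1 cells (46.5%, 30 higher and 29 lower), beside 39.4% of all genes. They included Kctd13 (-0.83), Asb6 (-0.68) and Anapc2 (-0.65) among the lowest, and Cops9 (0.60), Eloc (0.52) and Fbxl5 (0.51) among the highest. The difference between the settings called 9 list genes, all more negative with IFN-γ, beside 4.64% of all genes (0.663% higher and 3.97% lower). Among them were Asb6 (-0.43, SE 0.104, edgeR adjusted p = 0.0424), Dcaf15 (-0.40, SE 0.100, edgeR adjusted p = 0.0487) and Fem1a (-0.39, SE 0.0662, edgeR adjusted p = 0.0171). All 3 were lost without any single library of NC with IFN-γ, of sgUba1 or of sgUba1 with IFN-γ (edgeR adjusted p = 0.193, 0.221 and 0.139 without NC with IFN-γ replicate 1).

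Within tumors few list genes passed. In tumors labelled sgUba1 2 of 128 were called, the Cul2 receptor Fem1a (log2 fold change 0.51, SE 0.0802, edgeR adjusted p = 0.0193) and the Cul3 receptor Klhl22 (0.37, SE 0.0722, edgeR adjusted p = 0.0302), both higher in 7 of 7 than in every sgNC tumor, beside 3.04% of all genes. Fem1a was lost without sgNC replicate 2 (0.51, edgeR adjusted p = 0.0732) or 3 (0.54, 0.0641) and without sgUba1 replicate 4 (0.51, 0.0529) or 6 (0.51, 0.0501). Klhl22 was lost without any sgNC replicate (0.0544, 0.131 and 0.0981) and without sgUba1 replicate 1 (0.0553), 4 (0.0623), 5 (0.0622), 6 (0.0681) or 7 (0.0634), with values from 0.35 to 0.39. edgeR called 0 of 129 in B16-BL6 tumors, 0 of 127 between OE and EV and 0 of 129 between TAK-243 and vehicle.

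Between the control tumors of the 2 models 77 of 129 list genes were called (59.7%, 51 higher and 26 lower in B16-BL6), beside 59.9% of all genes. The largest differences were the Cul3 receptor Klhl13 (log2 fold change 7.05, SE 0.244), the Cul7 partner Obsl1 (6.19, SE 0.240) and the Cul5 receptor Spsb4 (5.77, SE 0.158), higher in B16-BL6. Socs2 (-4.71, SE 0.327), Fbxo31 (-3.50, SE 0.110) and Spsb1 (-1.99, SE 0.177) were lower, with edgeR adjusted p at or below 9.51e-05 for the 6. Obsl1 averaged 62.3 CPM in B16-BL6 against 0.864 CPM in Myc-CaP tumors, beside the higher Cul7 in the same tumors.

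Other cell types were followed by their markers in the tumors. Summed T and NK cell markers ran from 5.91 to 29.5 TPM, myeloid markers from 142 to 1008, fibroblast markers (12 genes, Col1a1 on top in the Myc-CaP tumors) from 209 to 1101, endothelial markers (12 genes, Egfl7 on top in most groups) from 53.4 to 148, and muscle markers (14 genes) from 14.5 to 646. With TAK-243 in mice the myeloid sum was 664, 680, 474, 717 and 373 TPM against 259, 374, 344, 355, 308 and 399 with vehicle. Their part in the members' values was not tested.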

How the data were processed

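The authors deposited estimated counts and TPM values per gene, made with kallisto against mm10 according to the submitters' processing notes. The deposited expected counts were rounded and analysed in R 4.3.3 with edgeR 4.0.16 (TMM factors, filterByExpr with a minimum count of 10, quasi-likelihood F test), separately for each experiment. A prior count of 2 was set for the log2 CPM used in correlations, while the fold changes kept edgeR's default. Alternatives were DESeq2 1.42.0, limma-voom and limma 3.58.1 on log2 of TPM plus 1, RLE factors, no filter, at least 10 counts in every library, a replicate block, for cells only the 4 libraries compared, and each library left out once. Counts of alternatives include all of these unless the text says otherwise. Adjusted p-values are Benjamini-Hochberg, with a threshold of 0.05. Intervals are 95%, from 1.96 SE.

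From the pathway lists, the text names the 3 largest called changes in each direction among genes whose log2 CPM averaged 1 or more. The members, the lists and the markers were chosen with earlier results of these data known. Lists covered neddylation, deneddylation and exchange, adaptors and Cul7 partners, transfer partners, distant relatives, receptors of each cullin, and markers of melanocytes, T and NK cells, myeloid cells, fibroblasts, endothelium, muscle and keratinocytes. Pattern likeness used genes whose log2 CPM averaged 3 or more. The labels describe poly-A capture, while the study's methods describe digestion of ribosomal RNA. No pair of libraries within a group was identical (0 of 75), and pairs across groups were not compared. The scripts were tested on simulated data.

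Limits: groups of 2 to 7 libraries give imprecise spreads. Replicate numbers do not pair samples. Bulk levels mix cell types in tumors. RNA levels say nothing of cullin protein or its NEDD8 state. Guides and hosts are not given per library. Cells and tumors, and the 2 models, were separate library sets. An absent call does not show an absent difference.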

Additional observations from a re-analysis of the deposited data

Results flagged for a closer look

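An outlier check was run for each member in each group of 4 or more libraries, which are all tumors, giving 50 sets of values, and 0 outliers were found. Smaller groups, including all cell groups, were not checked. Some effects had opposite signs in settings that carry the same contrast, and the reasons were not tested.

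For sgUba1 against control, Cul1 was 0.13 in cells and 0.11 in cells with IFN-γ but -0.10 in B16-BL6 tumors. Cul2 was 0.28 and 0.41 in cells but -0.11 in B16-BL6 tumors. Of these, edgeR called Cul1 in cells without IFN-γ and Cul2 in both cell settings, and neither in tumors.

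For IFN-γ against control, Cul1 was 0.071 in the guide experiment and -0.19 in the TAK-243 experiment, Cul4a was 0.12 and -0.036, and Cul4b was 0.052 and -0.20. Only the falls of Cul1 and Cul4b in the TAK-243 experiment were called. The differences between experiments were not tested.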

How the results depend on the processing

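Of 1949 member values under other settings, 1869 kept their label, 63 were weaker, 17 stronger and 0 reversed, while 102 changed sign but were called in neither setting. Among these, with a replicate block in Myc-CaP tumors labelled sgUba1 Cul7 was 0.44 (-0.31 without) and Cul9 -0.07 (0.78 without), although the numbers do not pair samples. For other genes 1 value reversed: the difference of the Uba1 effect of TAK-243 with and without IFN-γ was -0.17 in edgeR and 0.0153 on TPM. The causes were not tested. Where a library was left alone in its arm, that sample is assumed to vary like the other groups.

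Genes called depended on the tool. In B16-BL6 tumors 127 became 523 with DESeq2, 51 on TPM and 204 with no filter, and DESeq2 called 2 members in place of 0. Leaving out 1 library gave 43 (sgNC replicate 1) to 320 (sgUba1 replicate 4). In Myc-CaP tumors labelled sgUba1 492 became 1820 with DESeq2, 300 with limma-voom, 243 on TPM and 2 with a replicate block, and leaving out 1 library gave 10 (sgNC replicate 2) to 692. For OE against EV 4 became 695 with DESeq2, 2 with limma-voom, 33 with no filter and 0 with a block, and leaving out 1 library gave 0 (EV replicate 2 or 3) to 386 (OE replicate 1). For TAK-243 against vehicle 25 became 542 with DESeq2, 14 on TPM, 45 with no filter, 0 with at least 10 counts in every library and 8 with a block, and leaving out 1 library gave 1 (vehicle replicate 1) to 299 (TAK-243 replicate 5). Between control tumors a block gave 6326 in place of 10243 genes and 3 in place of 8 members.

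In cells, IFN-γ in the TAK-243 experiment gave 2381 with DESeq2 in place of 4216. The difference of TAK-243 effects gave 218 with DESeq2 and 0 on TPM in place of 347, and 85 to 329 with 1 library left out. The sgUba1 effect gave 2591 genes on TPM in place of 4618, 1 member in place of 3 with only the 4 libraries compared, and 2932 to 5641 genes and 0 to 4 members with 1 library left out. With IFN-γ it gave 3986 on TPM in place of 6119. IFN-γ in NC cells gave 387 with DESeq2, 24 on TPM, 292 with RLE factors, 1460 with no filter, 180 with at least 10 counts and 30 with only the 4 libraries, in place of 603. Leaving out 1 library gave 35 (NC with IFN-γ replicate 2) to 2721 (NC replicate 1) genes and 0 to 1 members. The difference of sgUba1 effects gave 13 on TPM, 414 with RLE factors, 1487 with no filter and 365 with at least 10 counts in place of 720, and leaving out 1 library gave 14 (NC with IFN-γ replicate 2) to 2622 (NC replicate 2) genes and 0 to 3 members.

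The median of all genes moved by more than 0.1 in 3 fits: IFN-γ in the TAK-243 experiment on TPM (-0.155 in place of 0.0366), the difference of TAK-243 effects on TPM (0.122 in place of -0.0404), and control tumors with DESeq2 (-0.106 in place of -0.00325, with -0.00969 under RLE factors alone). The TPM and DESeq2 fits also change the tool, so scaling was not tested alone in them. On TPM, Cul2, Rbx1 and Rnf7 changed sign with IFN-γ in the TAK-243 experiment and were called in neither. For the same comparison the values over 16 alternatives ran from -0.37 to -0.09 for Cul3 and from -0.40 to -0.15 for Cul5.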
